A study of Mus musculus with 12 samples.

Results

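Polg, Polg2 and Tfam are nuclear genes whose products copy and package mtDNA, and 35 of the 88737 probes of a mouse CpG island array lay in the genomic windows around them. The windows were chr7:86585000-86615000 for Polg, chr11:106620000-106650000 for Polg2 and chr10:70680000-70710000 for Tfam, on build mm9 as given by the array files. The window of Polg held 13 probes, that of Polg2 held 17 probes and that of Tfam held 5 probes.

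Polg encodes the catalytic subunit of DNA polymerase gamma, the polymerase that replicates mtDNA. Polg2 encodes its accessory subunit, which binds the catalytic subunit and increases its processivity. Tfam encodes a high mobility group protein that coats mtDNA into nucleoids and starts transcription from the mtDNA promoters, which also primes replication. In ES cells, mtDNA copy number is kept low until differentiation, and methylation of cytosines in the CpG island of exon 2 of Polg is one known point of control. CpG islands at promoters are mostly free of methylation in such cells.

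The experiment compared 4 ES cell lines, CC9mus, CC9spretus, CC9dunni and CC9pahari, with 3 replicate arrays of each and 12 arrays in all. All lines were made from CC9.3.1 cells of a 129SvEv-Gpi1c(129S6) embryo, so that they shared one set of chromosomes. They differed in the mtDNA that had been placed in them by fusion with enucleated cytoplasts, which was that of Mus musculus in CC9mus, Mus spretus in CC9spretus, Mus terricolor in CC9dunni and Mus pahari in CC9pahari. The last 3 are called the divergent lines. The CC9mus line had been reconstructed in the same way and carried the mtDNA genotype of the parental cells. Each group was a single cell line, so that the mtDNA and other differences between the lines cannot be told apart. The cells were kept for 48 h without feeder cells, and no treatment was given. DNA carrying 5-methylcytosine (5mC) was precipitated with an antibody (IP), labelled with Cy5 and hybridised with Cy3-labelled input DNA. The level of a probe is log2(IP/input) after each array was centred on its median. A value of 0 is thus the median of the array and not an absence of methylation, and the scale is not a percentage of methylated cytosines. The labels did not state that replicates were separate cultures, so that p-values measure only the spread between these samples.

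The 35 probes formed 4 runs, a run being neighbouring probes no more than 1000 bp apart. The Polg run had 13 probes over chr7:86609663-86611796 and the Tfam run had 5 probes over chr10:70700324-70701038. The Polg2 window held 2 runs. Run 1 had 6 probes over chr11:106640494-106641052. Run 2 had 16 probes over chr11:106648827-106650701, of which 11 lay inside the window and 5 beyond its edge. There were 7774 bases between the runs. In the RefSeq annotation of GRCm38.p6 the gene next to the start of Polg2 was Ddx5, which encodes an RNA helicase. No annotation on mm9 was used, so it was not determined here which of the runs belonged to Polg2, and they are kept apart. Which Polg probes lay in exon 2 was not determined for the same reason.

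The 250 bases before one annotated start of each gene are shown because the probes of CpG island arrays lie around such starts. They are RefSeq sequences on build GRCm38.p6 and not the sequences of the probes. All 3 genes were matched by symbol and lay on the minus strand, Polg at chr7:79466274-79466523, Polg2 at chr11:106779538-106779787 and Tfam at chr10:71238045-71238294. Capitals mark the CG dinucleotides, the sites at which 5mC is placed.
Polg: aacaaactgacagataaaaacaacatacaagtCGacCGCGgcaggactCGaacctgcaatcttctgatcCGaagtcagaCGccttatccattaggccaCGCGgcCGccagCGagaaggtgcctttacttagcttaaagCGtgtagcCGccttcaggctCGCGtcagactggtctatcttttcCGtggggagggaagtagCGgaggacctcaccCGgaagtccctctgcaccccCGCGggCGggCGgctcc
Polg2: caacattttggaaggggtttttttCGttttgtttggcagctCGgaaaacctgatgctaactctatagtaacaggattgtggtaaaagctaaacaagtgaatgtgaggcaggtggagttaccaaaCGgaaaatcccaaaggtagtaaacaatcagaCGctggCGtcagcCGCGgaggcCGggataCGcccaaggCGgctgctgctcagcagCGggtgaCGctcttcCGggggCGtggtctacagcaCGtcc
Tfam: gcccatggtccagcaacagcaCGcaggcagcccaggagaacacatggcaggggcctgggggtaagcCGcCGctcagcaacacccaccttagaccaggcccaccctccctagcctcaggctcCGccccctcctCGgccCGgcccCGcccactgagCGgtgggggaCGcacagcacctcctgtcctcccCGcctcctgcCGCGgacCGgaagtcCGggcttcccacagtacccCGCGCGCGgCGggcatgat

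The Polg stretch held 21 CG dinucleotides with 58.0% G and C, that of Polg2 held 15 with 52.4%, and that of Tfam held 19 with 72.0%. The median over the same stretch of 32851 promoters was 6.0, with quartiles of 2.0 and 16.0. Polg and Tfam thus lay above the upper quartile and Polg2 below it. The stretch of Polg held all 73 bases of a transfer RNA gene, n-TRtcg5 at chr7:79466419-79466491, and 8 of its 21 CG dinucleotides lay in that gene. The stretches of Polg and Tfam lay within the annotated span of the gene itself, that of Polg2 did not. GGGCGG, the core of a site for Sp1, was searched on both strands. It occurred in 2 places each in Polg and Tfam and was not found in the Polg2 stretch, and 32.7% of all promoters held it. The palindromic form of the NRF1 site, searched by its letters on both strands, was not found in the 3 stretches and was held by 0.782% of promoters. CCGGAAG, a core of ETS-family sites, was searched on both strands after the sequences had been seen. It lay once in each stretch, at 38 bases before the start in Polg, 29 in Polg2 and 47 in Tfam, and 6.91% of all promoters held it. No overlap of the motifs was searched for, and these matches describe letters and not binding.

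The Tfam run gave the widest gap between CC9mus and the divergent lines. Its level in CC9mus was −0.24, −1.27 and −1.21 in replicates 1 to 3, with a mean of −0.90 ± 0.58 (SD, n = 3). In CC9spretus it was −0.06, 0.01 and −0.10, with a mean of −0.05 ± 0.05 (SD, n = 3). In CC9dunni it was −0.23, −0.07 and 0.12, with a mean of −0.06 ± 0.18 (SD, n = 3). The 3 CC9mus arrays were below the other arrays so far, but replicate 1 and the lowest CC9dunni array were nearly equal. In CC9pahari the level was 0.01, 0.05 and 0.03, with a mean of 0.03 ± 0.02 (SD, n = 3). The arrays of the divergent lines thus lay close together around the array median, and CC9mus lay below all 9 of them. Over the 14579 runs of the array, 3.33% had all CC9mus arrays below the 9 others and 3.61% had them above. The Tfam level lay at the 13.1 percentile of the 9086 runs with 5 or more probes in CC9mus and at the 53.4 to 56.9 percentile in the divergent lines.

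**Figure D1:**
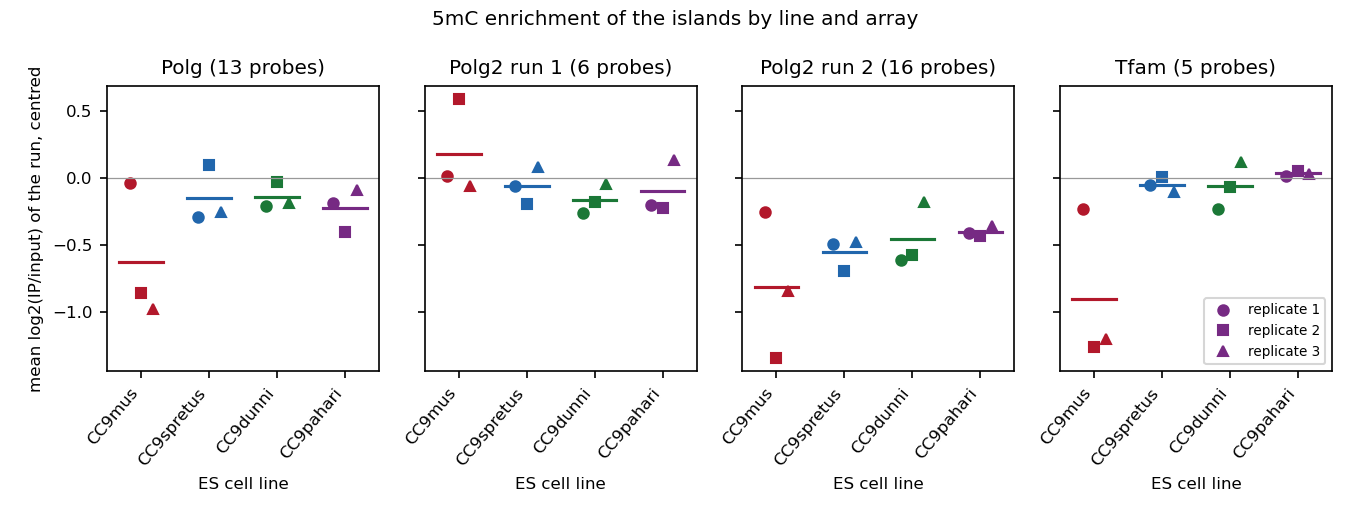
Mean log2(IP/input), centred, of the 4 runs (y axis) in each ES cell line (x axis). Symbols are the 3 replicate arrays and bars their mean. The Tfam level of the 3 CC9mus arrays was −0.24, −1.27 and −1.21, and that of the 9 other arrays lay between −0.23 and 0.12.

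In limma (lmFit and eBayes), fitted over all runs of the array, the Tfam run was lower in CC9mus than in the mean of the 3 divergent lines by a log2 difference of −0.88 (SE 0.21, unadjusted p = 0.0015, Benjamini-Hochberg adjusted p = 0.0514). It did not pass the threshold of 0.05 by a narrow margin. The difference lay at the 2.89 percentile among the 9086 runs with 5 or more probes, whose median difference was −0.13 with quartiles of −0.40 and 0.25. No run of the array passed in this contrast, which is 0.0% of 14579, and 4706 runs (32.3%) had an unadjusted p under 0.05. Of the 4 runs here, those of Polg and Tfam had one.

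Whether Tfam passed depended on the processing and on 1 array. Without CC9mus replicate 1 the difference was −1.21 (limma adjusted p = 0.00028), and 50.3% of all runs then passed. When arrays were scaled to the same median absolute deviation (equal spread) it was −0.61 (limma adjusted p = 0.0126), with 13.8% of runs passing. It also passed with the replicate number as a block (−0.88, limma adjusted p = 0.0470), as did 7.95% of runs, and without centring (−0.95, limma adjusted p = 0.0449), as did 7.89%. With dim input or dim IP left out it passed as well (−0.88 each, limma adjusted p = 0.0461 and 0.0313), with 4.97% and 15.1% of runs. With normexp background correction it was −0.43 (limma adjusted p = 0.221), and 0.0% of runs passed. The direction was the same in all these fits. The width of the distribution differed between arrays, also within CC9mus. The SD over all probes was 0.53, 1.85 and 2.01 in CC9mus (replicates 1 to 3), the narrowest and the 2 widest of the 12 arrays, and 1.09 to 1.38 in the divergent lines. With equal spread, the Tfam level was −0.54, −0.68 and −0.66 in CC9mus and −0.24 to 0.22 on the 9 other arrays. The nearest arrays of the groups were further apart than on the reported scale, while the mean difference was smaller and lay at the 6.1 percentile of the 9086 runs.

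The 5 Tfam probes were all lower in CC9mus on the reported scale (4 of 5 with equal spread), and 1 of them passed the test, as did 4.57% of all probes of the array. This was chr10:70700455-70700499, whose log2 ratio was −0.16, −1.18 and −1.38 in CC9mus. It was 0.55, 0.53 and 0.12 in CC9spretus, 0.67, 1.00 and 0.38 in CC9dunni, and 0.78, 0.87 and 0.65 in CC9pahari. Every CC9mus array was below 0 and every other array above 0. The difference was −1.52 (SE 0.29), with a limma adjusted p of 0.0405 over all probes. The call was lost with the slide as a random block (−1.57, limma adjusted p = 0.0655), with scan period as a block (−1.29, limma adjusted p = 0.171) and with normexp (−0.52, limma adjusted p = 0.248). It was also lost when any 1 array other than CC9mus replicate 1 was left out, with limma adjusted p-values of 0.0533 to 0.113. The probe was the highest of the 5 probes by its mean over the 12 arrays, 0.23, and also the one with the largest difference. With equal spread its CC9mus values were −0.36, −0.64 and −0.76 and those of the other arrays 0.13 to 1.06 (limma adjusted p = 0.00736). IP and input were well above background for all 5 probes on every array.

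On the reported scale, the other Tfam probes shared the direction but not the call. The neighbouring probes chr10:70700649-70700693 and chr10:70700725-70700769 gave −0.94 (SE 0.35, limma adjusted p = 0.104) and −1.04 (SE 0.29, limma adjusted p = 0.0576). In both, replicate 1 of CC9mus lay within the range of the divergent lines while replicates 2 and 3 lay below it. At chr10:70700994-70701038 the difference was −0.56 (SE 0.26, limma adjusted p = 0.177), and the 3 CC9mus arrays, at −0.67, −0.77 and −1.12, lay below the 9 others, the lowest of which was at −0.61. The outermost probe chr10:70700324-70700368 was the lowest of the run, with a mean of −0.97 over the 12 arrays. It also had the smallest difference, −0.31 (SE 0.39), and its groups overlapped. The differences along the run thus ran from −1.52 to −0.31, and whether they differed from one another was not tested. Some of these probes passed in other settings. With dim IP left out, chr10:70700725-70700769 did, as did 8.21% of the probes tested. With scan period as a block at equal spread, it and chr10:70700994-70701038 did, as did 21.4%. Without CC9mus replicate 1, it and chr10:70700649-70700693 did, as did 40.4%.

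**Figure D2:**
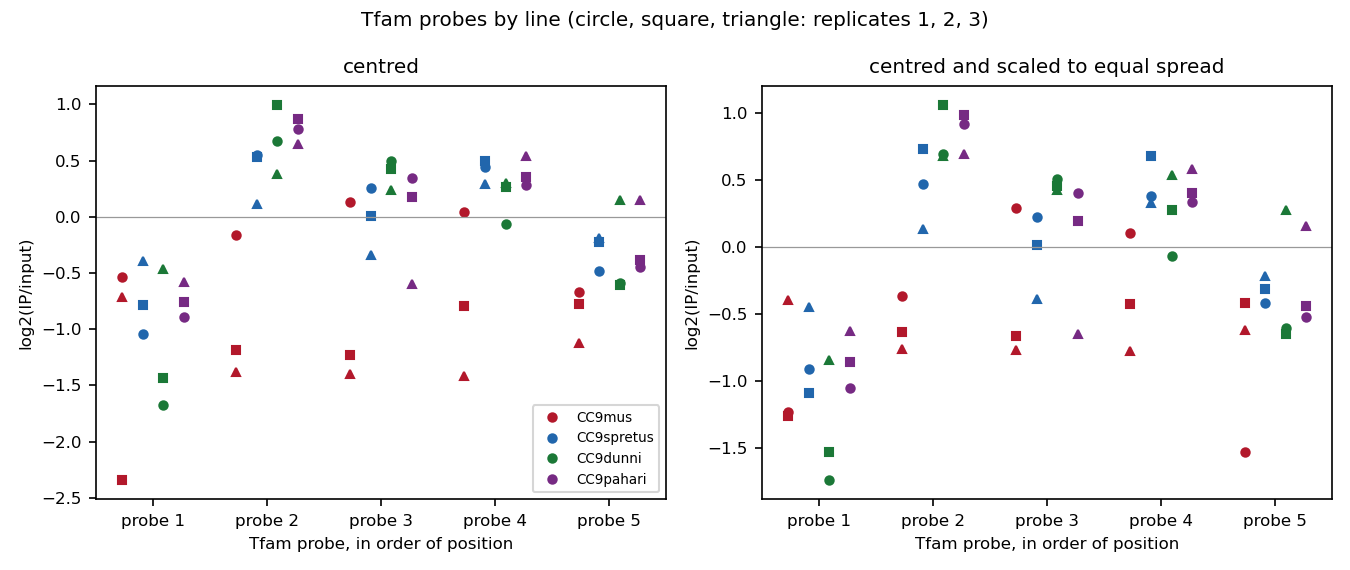
Log2(IP/input) (y axis) of the 5 Tfam probes in order of position (x axis), on each of the 12 arrays, centred (left) and also scaled to equal spread (right). Probe 2 separated CC9mus (−0.16 to −1.38 on the left) from the 9 other arrays (0.12 to 1.00), whereas the groups overlapped at probe 1.

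Both channels moved with the Tfam ratio. The centred log2 IP signal of the run was 0.23 ± 0.53 (SD, n = 3) in CC9mus and 0.78 ± 0.17 (SD, n = 9) over the divergent lines. The centred log2 input signal, measured on the same spots, was 1.17 ± 0.04 (SD, n = 3) and 0.86 ± 0.17 (SD, n = 9). The IP was therefore lower in CC9mus by 0.54 and the input higher by 0.31. These channel means were not tested.

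The Polg run was also lower in 2 of 3 CC9mus arrays, but it did not pass the test. Its level in CC9mus was −0.04, −0.86 and −0.98, with a mean of −0.63 ± 0.51 (SD, n = 3). In CC9spretus it was −0.29, 0.10 and −0.26, in CC9dunni −0.21, −0.03 and −0.19, and in CC9pahari −0.19, −0.41 and −0.09. Replicates 2 and 3 of CC9mus lay below all 9 other arrays, whereas replicate 1 lay among the highest. The means of the divergent lines were −0.15 ± 0.22, −0.14 ± 0.10 and −0.23 ± 0.16 (SD, n = 3 each), and their order was within that spread. The difference of CC9mus from their mean was −0.45 (SE 0.20, limma adjusted p = 0.154). Without CC9mus replicate 1 it was −0.75 (limma adjusted p = 0.00337), and with equal spread −0.16 (limma adjusted p = 0.502). Polg input was alike, with −0.36 ± 0.10 (SD, n = 3) in CC9mus and −0.39 ± 0.05 (SD, n = 9) in the divergent lines, while the IP was −1.02 ± 0.58 and −0.62 ± 0.17.

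The Polg probes differed in level along the run. Their 12-array means ran from −1.44 to 1.08. Probes also differ in base composition and in how they hybridise, and the part of these in the order of probes was not tested, here or in the other runs. The highest was chr7:86610733-86610777. It read 0.21, 0.66 and 0.63 in CC9mus, 1.44, 1.15 and 0.57 in CC9spretus, 1.69, 1.72 and 0.67 in CC9dunni, and 1.66, 1.73 and 0.88 in CC9pahari. It was above 0 on every array and the highest probe of the run on 7 of 12 arrays. Its difference in CC9mus was −0.78 (SE 0.32, limma adjusted p = 0.136). With equal spread its CC9mus values were 0.49, 0.36 and 0.34, below those of the other arrays (0.65 to 1.97). It then passed, as did 12.1% of all probes, but not with scan period as a block as well. The lowest was chr7:86610391-86610441, with a mean of −1.44, below 0 on every array and the lowest of the run on 5 of 12. Its IP was well above background on 4 arrays only (1 of CC9mus and 3 of the divergent lines), so that much of its range is that of dim spots.

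On the reported scale, the largest difference in Polg lay beside the highest probe. At chr7:86610660-86610704 the log2 ratio was −0.22, −2.41 and −2.06 in CC9mus, −0.70, −0.10 and −1.06 in CC9spretus, −0.10, −0.07 and −0.15 in CC9dunni, and −0.63, −0.03 and −1.12 in CC9pahari. Replicates 2 and 3 of CC9mus lay below the 9 others and replicate 1 lay among them. The difference was −1.12 (SE 0.43, limma adjusted p = 0.114). With equal spread its mean was −0.97 in CC9mus and −0.48 in the divergent lines. That gap was smaller than at the highest probe, with 0.40 and 1.46. All 13 Polg probes had a lower mean in CC9mus on the reported scale, but 4 of them had a higher one with equal spread.

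Run 1 of the Polg2 window was the one run with a higher mean level in CC9mus. It had levels of 0.01, 0.59 and −0.06 in CC9mus, −0.06, −0.20 and 0.08 in CC9spretus, −0.27, −0.18 and −0.05 in CC9dunni, and −0.20, −0.23 and 0.13 in CC9pahari. The groups overlapped, and only replicate 2 of CC9mus lay above all 9 other arrays. The line means were 0.18 ± 0.36, −0.06 ± 0.14, −0.16 ± 0.11 and −0.10 ± 0.20 (SD, n = 3 each) in the same order. The difference of CC9mus from the divergent lines was 0.29 (SE 0.17, limma adjusted p = 0.258). It rested largely on replicate 2, without which it was 0.083, and leaving out any other array gave 0.26 to 0.41. It was 0.039 with normexp, 0.042 with the median over the run, 0.13 with dim IP and 0.19 with dim input left out, and did not pass in any of these fits. Both signals were lower in CC9mus, the IP at −0.90 ± 0.50 against −0.55 ± 0.26 and the input at −1.04 ± 0.03 against −0.38 ± 0.30 (SD, n = 3 and n = 9), and the input by more. The part of the input in the ratio was not tested.

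Along run 1, the 12-array means rose from −1.32 at chr11:106640494-106640541 to 1.18 at chr11:106640770-106640814 and fell again towards chr11:106640993-106641052. The central probe was the highest of the run on 7 of 12 arrays. The IP signal of the last probe was well above background in none of the 9 arrays of the divergent lines and in 1 of 3 arrays of CC9mus, and its input on 11 of 12 arrays, so that no level or difference is given for it. The 2 outermost probes minus the 4 between them gave −1.95 ± 0.53 (SD, n = 12 arrays), below 0 on all 12. The dim last probe is one of the 2. The other, with a mean of −1.32, had an IP well above background on 10 of 12 arrays, so that the size does not rest on dim spots alone. The quantity was −0.66 when probes with a dim input were left out and −0.39 with normexp. The former left out the last probe and made chr11:106640841-106640885, with a mean of 0.99, an edge.

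Taken over all 16 probes, 5 of them beyond the window, run 2 of the Polg2 window had a low level in every line. It was −0.26, −1.35 and −0.84 in CC9mus, −0.50, −0.70 and −0.48 in CC9spretus, −0.61, −0.58 and −0.18 in CC9dunni, and −0.41, −0.43 and −0.36 in CC9pahari. These levels, and the percentiles and differences that follow, are over all 16 probes and were not computed for the 11 inside the window. All 12 arrays were below 0, and the groups overlapped. The means were −0.82 ± 0.54, −0.56 ± 0.12, −0.46 ± 0.24 and −0.40 ± 0.04 (SD, n = 3 each), which placed it at the 14.8 to 16.6 percentile of runs in the 4 lines. The difference of CC9mus from the divergent lines was −0.34 (SE 0.21, limma adjusted p = 0.266). It was −0.62 without CC9mus replicate 1 (limma adjusted p = 0.0138) and −0.05 with equal spread (limma adjusted p = 0.837). The 11 probes inside the window had a median difference of −0.0020, with 6 lower and 5 higher in CC9mus. The difference of the run thus cannot be read as that of the probes in the window.

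Among the 11 probes of run 2 in the window, 1 stood above the rest. At chr11:106649919-106649963 the log2 ratio was 0.97, 1.02 and 3.73 in CC9mus, 1.64, 0.63 and 1.09 in CC9spretus, 1.03, 0.98 and 0.35 in CC9dunni, and 2.01, 1.79 and 1.1 in CC9pahari. It was the highest probe of the run on 11 of 12 arrays. The CC9mus mean of 1.91 rested on replicate 3. Its difference, 0.73 (SE 0.52, limma adjusted p = 0.370), was the largest positive one of run 2, and without that replicate it was −0.19. Near the start of the run, chr11:106648993-106649037 had the largest negative difference of the 17 probes, −0.93 (SE 0.33, limma adjusted p = 0.098). Its log2 ratio was −0.58, −2.37 and −1.32 in CC9mus against −0.80 to −0.18 in the other arrays. The first probe of the run, chr11:106648827-106648871, had all 3 CC9mus arrays (−0.63, −1.0 and −1.07) below the 9 others. Its difference was −0.74 (SE 0.22, limma adjusted p = 0.067). This probe passed with dim IP left out, as did 8.21% of the probes tested, and without CC9mus replicate 1, as did 40.4%.

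**Figure D3:**
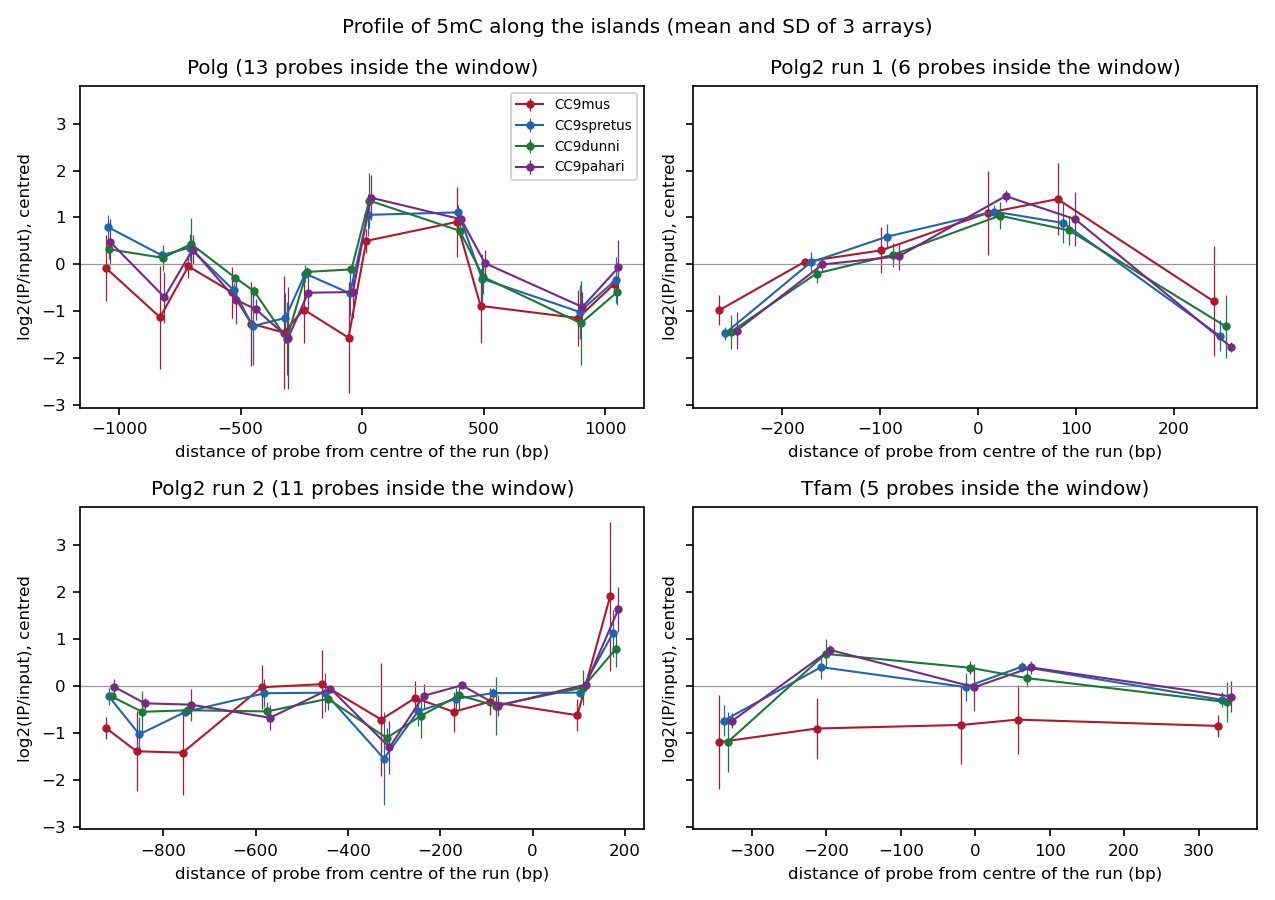
Log2(IP/input), centred (y axis), against the distance of each probe from the centre of its run in bp (x axis). Points are the means of 3 arrays of a line and bars their SD, and lines are offset by a few bp for clarity. Pearson's r between the profiles of 2 lines was 0.76 to 0.90 in Polg. The mean of CC9mus was the lowest of the 4 at each Tfam probe, but nearly equal to that of CC9dunni at the leftmost. With equal spread, that probe was lower in CC9dunni (−1.37) than in CC9mus (−0.96).

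The profiles of the lines were correlated along each run, although neighbouring probes did not always rise or fall together. From chr7:86610733 to chr7:86611105, for example, the mean rose from 0.50 to 0.90 in CC9mus and from 1.06 to 1.11 in CC9spretus, and fell from 1.36 to 0.72 in CC9dunni and from 1.42 to 0.96 in CC9pahari. Over the 13 Polg probes, Pearson's r between the mean profiles of 2 lines was 0.76 to 0.90. It was 0.95 to 0.99 over the 6 probes of Polg2 run 1, 0.71 to 0.97 over the 11 probes of run 2 and 0.66 to 0.97 over the 5 Tfam probes. The lowest r of each run was between CC9mus and a divergent line. These values describe probes that share arrays and base composition. The outermost probes of Tfam minus the 3 between them gave −0.76 ± 0.58 (SD, n = 12), below 0 on 11 of 12 arrays, and −0.15 when 2 probes on each side were taken as the edge. In Polg this quantity was 0.35 ± 0.37 (SD, n = 12), above 0 on 11 of 12 arrays and −0.046 with normexp, which left no order of edge and middle.

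The methods name a log2 limit of 2 and −2, a ratio of 4, for differences between samples, together with a limit on Z-scores. Here only the size of that limit was taken, and it was set against the centred IP/input mean of each line by itself, which is another quantity, so that the counts are not those of the methods. Of the 35 probes, none had a mean of a line above 2 or below −2, whereas 15.2% of all probes of the array were beyond it in at least 1 line. The shares of all probes above 2 were 9.39% in CC9mus, 5.16% in CC9spretus, 5.32% in CC9dunni and 4.71% in CC9pahari, and those below −2 were 3.25%, 1.08%, 0.586% and 0.124%. The nearest was the probe at chr11:106649919-106649963, with 1.91 in CC9mus. On single arrays, 7 and 5 members were beyond it in CC9mus replicates 2 and 3, where 29.1% and 29.7% of all probes were. None was in CC9mus replicate 1, where 0.745% of all probes were, and 0 to 2 were on the other arrays, where 5.06% to 12.5% of all probes were.

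In the contrast of CC9mus with the mean of the divergent lines, 1 of 35 probes had a limma adjusted p under 0.05, and 4.57% of all probes of the array did. In the lower direction the share of all probes was 1.81%. At an unadjusted p under 0.05 there were 9 of 35, and 28.9% of all probes. The count was 0 when any array other than CC9mus replicate 1 was left out, and 13 without that replicate, when 40.4% of all probes passed. With equal spread it was 4, of which 1 was a Tfam probe, 1 a Polg probe and 2 were in Polg2 run 1 (one of them its dim last probe), and 12.1% of all probes passed. The members were lower in CC9mus in 26 of 35 cases, with 13 of 13 in Polg, 2 of 6 in Polg2 run 1, 6 of 11 in run 2 and 5 of 5 in Tfam. Of all probes, 53.2% were lower. With equal spread the count was 20 of 35, with 9 of 13 in Polg, 2 of 6 in Polg2 run 1, 5 of 11 in run 2 and 4 of 5 in Tfam, when 53.1% of all probes were lower. Without CC9mus replicate 2 it was also 20, when 50.8% of all probes were. The median difference was −0.31 over the members and −0.06 over all probes, and that of the members ranged from −0.48 (without CC9mus replicate 1) to −0.19 (without CC9dunni replicate 3). All 3 CC9mus arrays lay below the 9 others in 3 of 35 probes (2 of Tfam and 1 of Polg2 run 2), and in 3.41% of all probes. They lay above the 9 others in none of the 35, and in 3.78% of all probes. The counts of called probes were thus near those of the array as a whole.

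Against CC9mus alone, no divergent line had a member probe with a limma adjusted p under 0.05, and neither did any probe of the array (0.0% in each contrast). At an unadjusted p under 0.05 there were 5 of 35 for CC9spretus, 9 for CC9dunni and 6 for CC9pahari, against 17.1%, 23.4% and 20.7% of all probes. For the Tfam run the differences from CC9mus were 0.85 in CC9spretus, 0.84 in CC9dunni and 0.93 in CC9pahari (SE 0.26 each, limma adjusted p = 0.203, 0.133 and 0.125). For the Polg run they were 0.47, 0.48 and 0.40 (SE 0.25 each, limma adjusted p = 0.314, 0.254 and 0.312). The 3 values of a gene were close to each other, and all shared the CC9mus arrays.

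No difference among the divergent lines was found at these genes, by a test that could hardly find one. Its residual spread came from all 12 arrays, CC9mus included. For the Tfam run the SD was 0.58 in CC9mus and 0.05, 0.18 and 0.02 in CC9spretus, CC9dunni and CC9pahari. Whether these lines were alike is thus not decided. In the limma F-test of any difference among the 3 lines, no member probe passed, none had an unadjusted p under 0.05, and 1.5% of all probes of the array had one (0.0% passed after adjustment). The unadjusted p was 0.934 for the Polg run, 0.880 and 0.829 for Polg2 runs 1 and 2, and 0.923 for the Tfam run, and 0.892% of all runs had one under 0.05. In the F-test over all 4 lines no member probe passed either, 4 of 35 had an unadjusted p under 0.05, and 13.6% of all probes had one.

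The scans were unevenly spread over the lines. All CC9mus arrays were scanned on a day with no other line, in the later of 2 scan periods, which also held replicate 3 of each divergent line. With scan period as a block, the Tfam difference was −0.92 (SE 0.26, limma adjusted p = 0.112) and that of Polg −0.45 (SE 0.26, limma adjusted p = 0.239). In the 6 arrays of the later period alone the values were −0.92 (SE 0.49) for Tfam and −0.45 (SE 0.47) for Polg. They equal those with the block by design, since CC9mus was scanned in that period only, and are no separate check. The earlier period held no CC9mus array. The CC9mus arrays were also on slides that held no other line, which a random block for the slide does not remove. The day of the scan, the slide and the CC9mus line cannot be told apart.

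**Figure D4:**
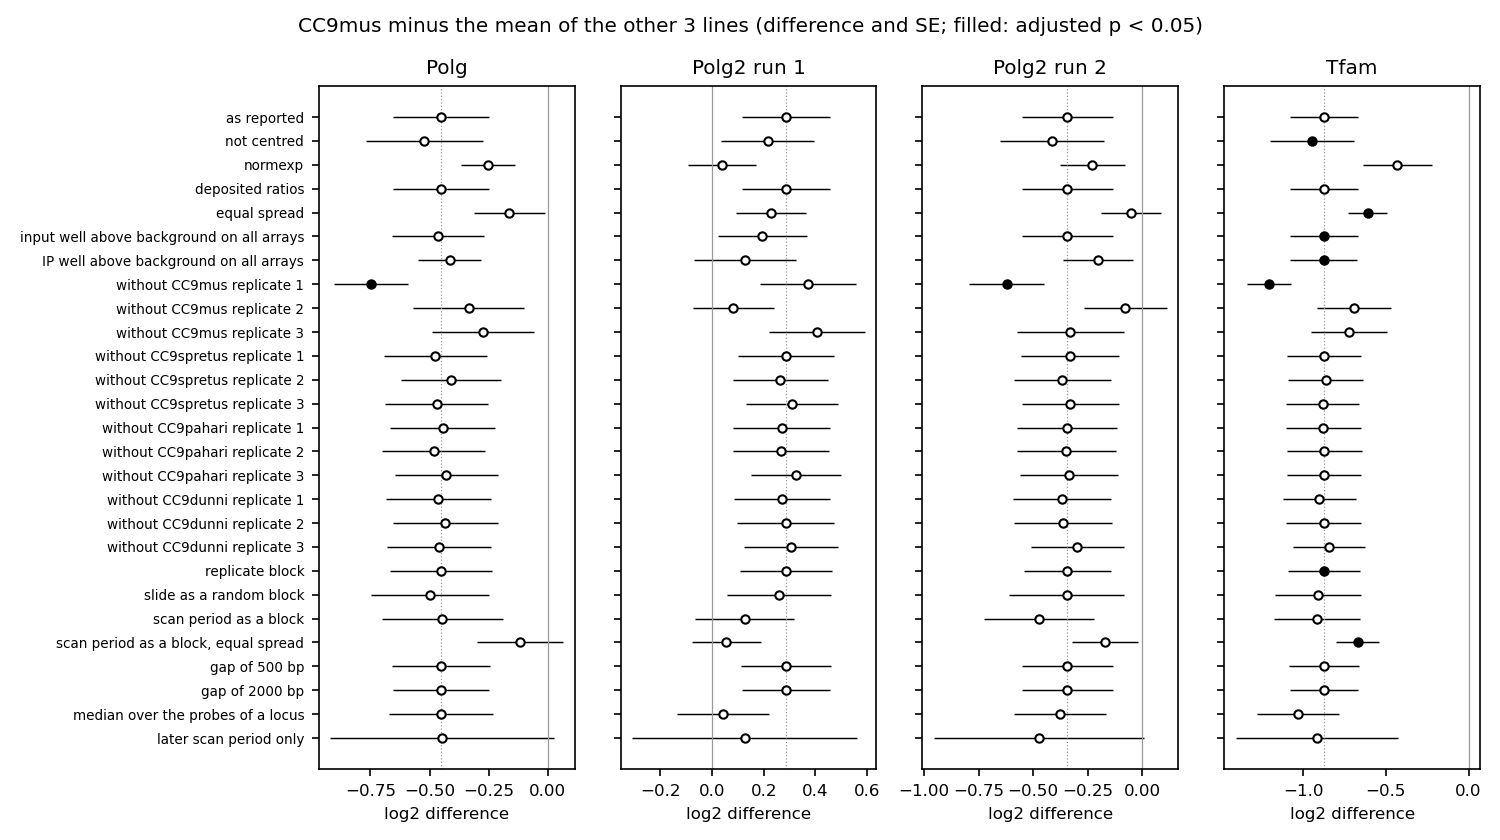
Difference of CC9mus from the mean of the 3 divergent lines (x axis, log2, with its SE) for the 4 runs under each setting (y axis). Filled points had a limma adjusted p under 0.05, and the dotted line is the reported value. The Tfam difference lay between −1.21 and −0.43 and never crossed 0, and those of Polg and of Polg2 run 2 were near 0 with equal spread.

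Runs elsewhere in the genome had patterns like those of the 3 genes. Among 13461 other runs with 3 or more probes, the one most like Tfam over the 12 arrays was chr16:22265259-22266292 with r = 0.99, and 753 runs had an r over 0.9. The nearest to Polg was chr19:4268967-4269408 with r = 0.97, and 110 runs had an r over 0.9. The nearest to run 2, the longer run of the Polg2 window, which was not assigned to a gene, was chr11:20100945-20101995 with r = 0.98, and 337 runs had an r over 0.9. These arrays share their spread as well, since r between the level and the SD of all probes on an array was −0.76 for Tfam, −0.83 for Polg and −0.76 for Polg2 run 2 (12 arrays). Among the members, Tfam and Polg had r = 0.87, and Tfam and Polg2 run 1 had r = −0.60.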

How the data were processed

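In 12 samples, 3 arrays of each of 4 ES cell lines as named in the labels, IP (Cy5) and input (Cy3) DNA were hybridised to CpG island arrays. The authors deposited processed intensities, background-subtracted and dye-normalised by Agilent Feature Extraction (11.0.1.1 in the file headers, 11.0.1.0 in the notes of the submitters). They also deposited log10 ratios, which equalled those in the array files (largest difference 0.0). Their steps in CytoGenomics and SPSS were left out here.

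From the intensities, log2(IP/input) was computed with outlier spots set to missing (none among the members), and the median of each array was subtracted. Neighbouring probes with gaps of no more than 1000 bp formed a run, whose level was the mean of its probes. Of the 88737 probes, 416 had no position. Line means were compared over all probes, or over all 14579 runs, with lmFit and eBayes of limma 3.58.1 under R 4.3.3 (8 residual degrees of freedom) and adjusted by Benjamini-Hochberg. The fit was also run on simulated data in which a probe had the same spread on every array. These arrays differ in spread, so that the simulation does not test the calls made here. Other steps used pandas 2.3.3 and numpy 2.4.6 in Python 3.11.15, and figures used matplotlib 3.10.9.

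IP was well above background for 25 to 35 of the 35 member probes per array and input for 33 to 35. Arrays give no read depth, and their number of 3 per line limits the precision. Named probes were, for each gene, the highest, the lowest, those with the largest difference of CC9mus in each direction and those passing a test. The other named probes were added after their values were seen. Of the 3 runs most like each gene, the closest is named. The genes and lists were chosen with earlier results of these data known. A list of 25 other genes of mtDNA replication and its control was not analysed here, since the files pair no probe with a gene. The alternatives were no centring, normexp (offset 50), the deposited ratios, equal spread, probes with dim input or IP left out, each array left out, blocks for replicate number, slide and scan period, gaps of 500 and 2000 bp, the median over a run, a threshold of 1 or on every array, and a wider edge. Leaving out the earlier scan period was added after the data were examined.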

Additional observations from a re-analysis of the deposited data

How the results depend on the processing

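The difference of CC9mus from the divergent lines kept its sign in all 4 runs under every alternative run. Side of the threshold was less stable for Tfam, whose reported adjusted p was 0.0514. It passed without centring (−0.95), with equal spread (−0.61), with dim input or dim IP left out (−0.88 each), with the replicate block (−0.88, adjusted p = 0.0470) and with scan period as a block at equal spread (−0.67, with 30.0% of all runs). Leaving out 1 array gave −1.21 to −0.69 for Tfam and −0.75 to −0.27 for Polg. For Polg2 run 2, over all 16 probes, it gave −0.62 to −0.078. Each of these 3 passed only without CC9mus replicate 1. Member probes passing in this contrast numbered 0 with normexp, the slide as a random block, scan period as a block and the later scan period only, 3 with dim IP left out (8.21% of all probes), 4 with equal spread, 6 with scan period and equal spread (21.4%), and 0 to 13 with 1 array left out. Some of these are outside Tfam, and the cause was not tested.

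Against single lines, leaving out 1 array gave 0 to 9 member probes for CC9spretus, 0 to 12 for CC9dunni and 0 to 9 for CC9pahari, and 0 to 6 for any difference among the 4 lines. The upper ends were those without CC9mus replicate 1, when 27.0%, 34.0%, 31.7% and 21.6% of all probes passed. With equal spread the counts were 2 for CC9dunni, 2 for CC9pahari and 1 for any difference (9.16%, 3.95% and 1.48% of all probes), and with scan period as well 1, 4 and 1 (19.5%, 14.6% and 9.65%). The Tfam difference passed at equal spread in CC9dunni (0.59) and CC9pahari (0.66), as did 8.92% and 5.63% of all runs, and with scan period as well in CC9spretus (0.64), CC9dunni (0.66) and CC9pahari (0.72), and over the 4 lines (adjusted p = 0.0383), as did 14.2%, 25.2%, 23.5% and 15.2% of runs. With 1 array left out (without CC9mus replicate 1, 32.8% to 46.3% of runs passed in these tests) it was 0.67 to 1.18 in CC9spretus, 0.66 to 1.17 in CC9dunni and 0.75 to 1.27 in CC9pahari, and the adjusted p over the 4 lines was 0.0025 to 0.652. For Polg these ranges were 0.30 to 0.77, 0.31 to 0.78 and 0.22 to 0.69, and 0.0240 to 0.870. For Polg2 run 2 they were −0.0077 to 0.54, 0.093 to 0.64 and 0.15 to 0.69, and CC9spretus also turned to −0.054 at equal spread. Polg2 run 1 turned to 0.14 in CC9spretus with the median over a run and to 0.048 in CC9pahari with normexp.

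The Polg probe chr7:86610391-86610441 had an IP well above background on 4 of 12 arrays only, 1 of them of CC9mus, and its difference has no settled direction. The computed values, mostly from dim spots, were 0.77 at equal spread, 0.55 with scan period as well, and −0.71 to 0.39 with 1 array left out. The outermost Tfam probe turned to 0.048 at equal spread and ranged from −0.64 to 0.27, and chr11:106649919-106649963 ranged from −0.19 to 1.20. With a threshold of 1, the member probes above and below it were 3 and 8 in CC9mus, 4 and 7 in CC9spretus, 2 and 6 in CC9dunni, and 3 and 4 in CC9pahari. The shares of all probes were 26.4% and 21.9%, 14.7% and 14.6%, 14.0% and 11.1%, and 16.4% and 9.35%. With 1 array left out the counts beyond 2 were 0 to 1 above and 0 to 2 below in CC9mus, where 4.28% to 17.7% and 0.779% to 10.8% of all probes were. They were 0 to 1 below in CC9dunni (0.248% to 2.74%) and CC9pahari (0.157% to 0.533%). Edges minus middle became −0.046 (normexp) and −0.23 (dim IP left out) in Polg, −0.39 (normexp), −0.66 (dim input left out) and −1.18 (wider edge) in Polg2 run 1, and −0.15 (wider edge) in Tfam. With dim IP left out, Polg2 run 1 had too few probes for it. Levels of the runs in single lines moved by over 1 SD of their arrays in 40 of 208 cases, 10 of them with normexp.

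Same-numbered arrays of 2 divergent lines had correlated deviations from their line means, with r of 0.12 to 0.54 and all 9 pairs above 0.1. Those of CC9mus and a divergent line had r of −0.38 to 0.19, with 3 of 9 pairs above 0.1, so that the numbers were not taken to pair CC9mus with the other lines. Beside the Tfam run, the replicate block changed no call of these genes.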
